A study of Homo sapiens with 16 samples.

Results

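KISS1 and 7 other genes that are known as metastasis suppressors, or that were listed with them, were followed by symbol in RNA sequencing of MDA-MB-231 cells: KISS1, CD82, BRMS1, NME1, PEBP1, ARHGDIB, CD44 and CTNNB1. All 8 were found once each among the 57500 genes of the count table, and all 8 were among the 15566 genes with enough counts to be tested. MDA-MB-231 is an established human triple-negative breast cancer line, and the series is about AKAP2, a scaffold protein that anchors protein kinase A. The cells carried a hairpin RNA that doxycycline (dox) switches on. The 4 groups were the shAKAP2 line with dox, the shAKAP2 line without it, the shScramble line (a control hairpin) with dox and the shScramble line without it, with 4 libraries in each. No source used here gives the dox dose, the treatment time, the hairpin sequence or whether each line was 1 clone, and the hairpin and the line that carries it cannot be told apart when the lines are compared. The labels call the libraries biological replicates without naming separate cultures, so the p-values here cover library-to-library spread, which may be technical.

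A metastasis suppressor is a gene whose product lowers the spread of a tumour to distant organs while the primary tumour still grows. KISS1 encodes the precursor of the kisspeptins, secreted peptides that act on a G protein-coupled receptor, KISS1R, and the gene was first found as a suppressor of melanoma spread and then tested in breast cancer cells. The other genes act at different places: CD82 in tetraspanin domains of the cell surface, BRMS1 in a chromatin complex with histone deacetylases, NME1 and PEBP1 in signalling in the cytoplasm, ARHGDIB in the control of the cytoskeleton, CD44 as the receptor of hyaluronan, and CTNNB1 (beta-catenin) in cell adhesion and Wnt signalling. CD44 and CTNNB1 are better known for promoting invasion or growth than for suppressing it.

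Total counts ranged from 24482997 to 37472525 per library. AKAP2, the hairpin's target, had 0.0403 ± 0.0583 CPM in shAKAP2 cells with dox and 1.42 ± 0.0272 CPM without it (SD, n = 4 each), so the target was low where the labels give induction of its hairpin. VIM, EGFR and AXL were abundant and ESR1, PGR and CDH1 were low, as in a mesenchymal triple-negative line. However, SPARC averaged only 1.44 to 3.37 CPM over the groups and ERBB2 averaged 55.8 to 65.0 CPM. CDH1 averaged 0.0751 CPM in shAKAP2 cells with dox and 0.173 CPM without. In shScramble cells it averaged 0.948 CPM with dox, with 2 to 62 counts per library, and 0.542 CPM without. Both shScramble libraries numbered 1 stood apart from their groups, with a root mean square log2 distance of 0.615 with dox and 0.566 without, against 0.384 to 0.469 for the other 14 libraries. The mitochondrial share of counts was 1.02% to 2.04% in shAKAP2 libraries with dox and 1.86% to 2.38% in those without. In shScramble libraries it was 2.20% to 3.02% with dox and 2.41% to 3.62% without. It was thus mostly lower in the shAKAP2 line, with overlap, and it also tended to be lower with dox in that line.

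The promoters of the 3 genes with the largest changes after induction of shAKAP2 are shown first, as 300 bases around the gene start in RefSeq (GRCh38.p14), 5′ to 3′ on the strand of the gene. Capitals mark the SP1 box GGGCGG, the AP-2 letters GCCNNNGGC and TATAAA, each on either strand. KISS1 is at chr1:204196442-204196741 on the minus strand, CD82 at chr11:44565413-44565712 on the plus strand and CTNNB1 at chr3:41199255-41199554 on the plus strand.
KISS1: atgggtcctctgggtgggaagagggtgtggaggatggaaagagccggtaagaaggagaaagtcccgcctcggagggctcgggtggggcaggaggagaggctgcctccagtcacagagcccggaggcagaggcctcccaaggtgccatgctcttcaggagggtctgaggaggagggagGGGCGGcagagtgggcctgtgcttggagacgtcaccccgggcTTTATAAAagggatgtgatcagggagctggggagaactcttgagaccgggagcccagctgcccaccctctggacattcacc
CD82: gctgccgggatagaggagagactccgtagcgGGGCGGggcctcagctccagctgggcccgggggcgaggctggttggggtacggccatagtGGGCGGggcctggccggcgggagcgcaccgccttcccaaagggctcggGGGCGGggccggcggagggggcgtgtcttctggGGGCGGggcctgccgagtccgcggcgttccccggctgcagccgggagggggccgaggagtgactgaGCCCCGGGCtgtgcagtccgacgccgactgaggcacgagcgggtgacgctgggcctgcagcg
CTNNB1: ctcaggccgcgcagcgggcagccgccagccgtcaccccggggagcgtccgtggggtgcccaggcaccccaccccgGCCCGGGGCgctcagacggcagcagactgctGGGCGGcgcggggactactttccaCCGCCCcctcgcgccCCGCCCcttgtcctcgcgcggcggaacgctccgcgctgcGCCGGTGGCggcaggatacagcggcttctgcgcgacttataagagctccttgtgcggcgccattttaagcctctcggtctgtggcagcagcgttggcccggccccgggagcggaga
The KISS1 promoter held TATAAA on both strands in overlapping letters, which 12% of the 27305 RefSeq promoters hold at least once, and none of the other 7 promoters held it. The SP1 box was found in 1 place in KISS1, 4 in CD82 and 3 in CTNNB1, and 44.6% of all promoters hold it. The AP-2 letters were found in 1 place in CD82 and 2 in CTNNB1, and not in KISS1, against 23% of all promoters. AP-2 and SP1 are factors described at the KISS1 promoter in earlier work. The full cyclic AMP element TGACGTCA, which 1.98% of promoters hold, was in none of the 8, and its core TGACG, which 25% hold, was found once each in KISS1, CD82, CTNNB1, BRMS1 and PEBP1 (not in capitals). These matches describe the letters in the window only.

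Induction of shAKAP2 was followed by more KISS1 RNA, slightly more PEBP1, and less CD82 and CTNNB1. The PEBP1 call was lost in all 8 fits that left out a library of this line. In shAKAP2 cells with dox against those without, 2 of the 8 genes rose and 2 fell, beside 28.3% of all tested genes called in either direction (13.1% higher and 15.2% lower). With so many genes called in this comparison, 4 of 8 is a count of these genes and is not read as a property of the group. In bulk RNA, fewer cells with a transcript and less transcript per cell cannot be told apart. The median log2 fold change was 0.09 over the 8 genes and 0.0016 over all genes tested.

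KISS1 (ENSG00000170498; GRCh38 chr1:204190341-204196486, minus strand) had 5.64, 5.87, 7.44 and 6.08 CPM in the 4 shAKAP2 libraries with dox, against 1.02, 1.04, 1.90 and 1.06 CPM in those without it. All 4 induced libraries lay above all 4 uninduced ones, and the uninduced ones rested on 27 to 50 counts each. The log2 fold change was 2.32 ± 0.213 (SE), a 5.01-fold difference, with an adjusted p of 5.64e-08. In the shScramble line KISS1 had 7.25, 10.4, 8.96 and 7.11 CPM with dox, against 6.31, 6.57, 9.19 and 7.65 CPM without it. These 2 sets of libraries overlapped, and the log2 fold change of 0.18 (95% interval -0.21 to 0.57) was not called (adjusted p = 0.861). The dox effect in the shAKAP2 line exceeded that in the shScramble line by 2.14 ± 0.282 on the log2 scale (adjusted p = 1.67e-05).

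The low KISS1 group was therefore the shAKAP2 line without dox. Mean KISS1 levels were 6.26 ± 0.811 CPM in shAKAP2 cells with dox, 1.26 ± 0.432 CPM in shAKAP2 cells without, 8.42 ± 1.54 CPM in shScramble cells with dox and 7.43 ± 1.31 CPM in shScramble cells without (SD, n = 4 each). Without dox, KISS1 was lower in the shAKAP2 line than in the shScramble line by a log2 fold change of -2.57 ± 0.212 (SE, adjusted p = 1.19e-07), while the AKAP2 transcript itself did not pass the test there (log2 fold change 0.27, adjusted p = 0.667). With dox, the KISS1 difference between the lines was -0.43 ± 0.187 (95% interval -0.82 to -0.04) and was not called (adjusted p = 0.0758), and the libraries of the lines overlapped. That call is not stable: the value passed when only these 2 groups were fitted (-0.43, adjusted p = 0.0496) and when both shScramble libraries numbered 1 were left out (-0.49, adjusted p = 0.0258).

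**Figure D1:**
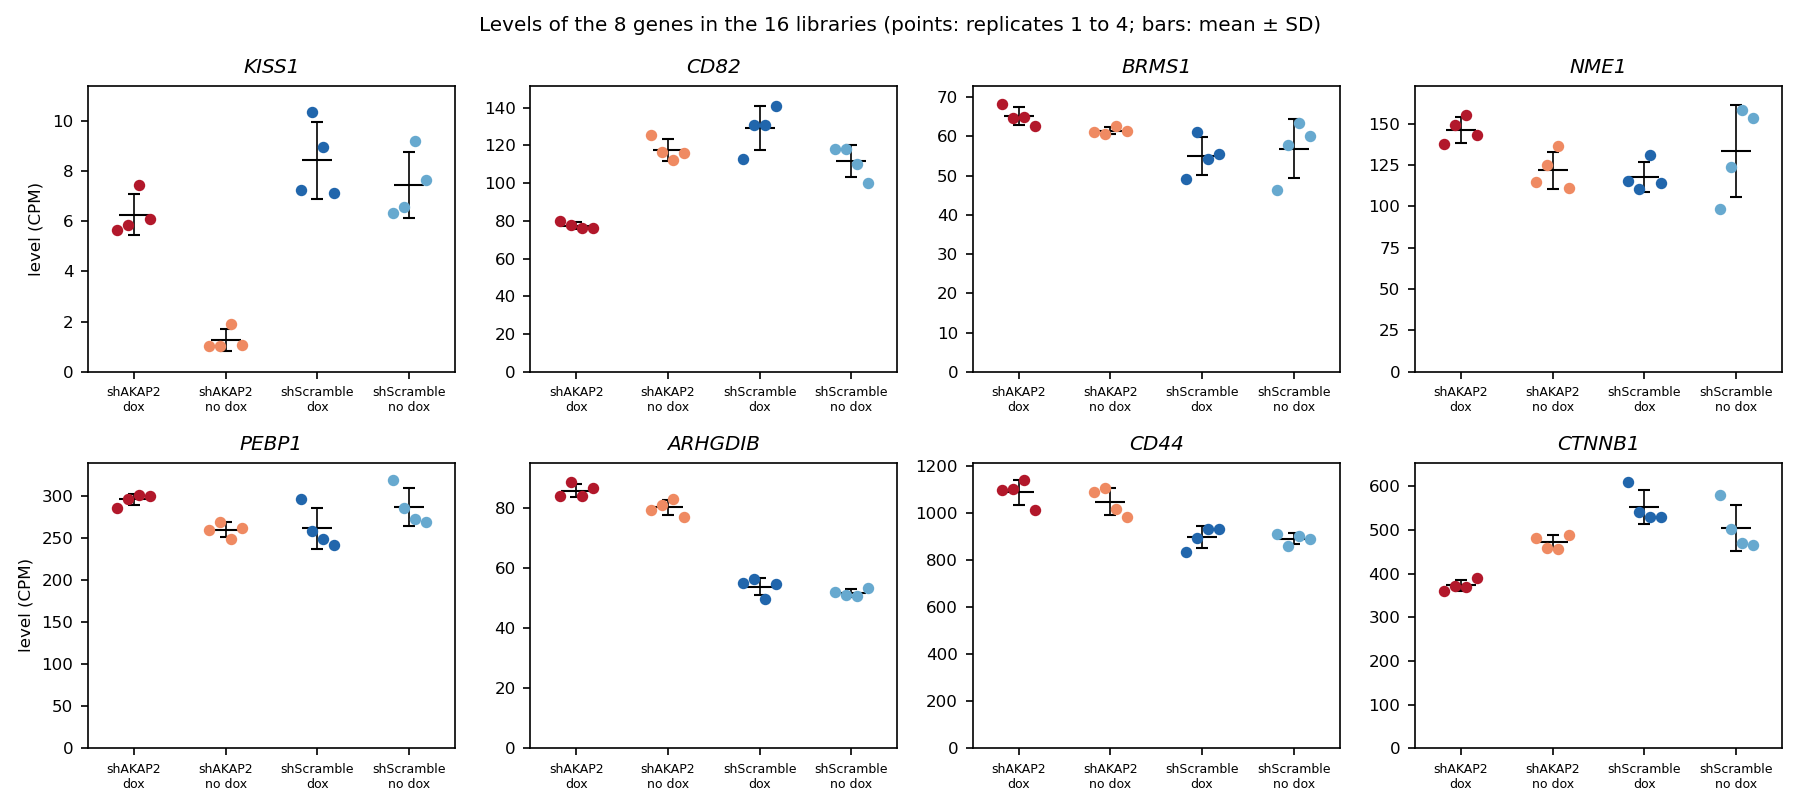
Level of each of the 8 genes in CPM (linear axis from 0), with a point per library in replicate order, and the mean and SD of each group as bars. KISS1 is lowest in shAKAP2 cells without dox (mean 1.26 CPM), CD82 and CTNNB1 are lowest in shAKAP2 cells with dox (means 77.5 and 373 CPM), and ARHGDIB is higher in both shAKAP2 groups than in both shScramble groups.

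CD82 (ENSG00000085117; chr11:44564427-44620363, plus strand), a tetraspanin that organises integrins and growth factor receptors in the cell membrane, had 80.0, 77.6, 76.0 and 76.2 CPM in shAKAP2 cells with dox, against 126, 117, 112 and 116 CPM without it. The groups did not overlap, and the 4 induced libraries were within a few CPM of each other. CD82 fell by 0.60 on the log2 scale (SE 0.0723, adjusted p = 2.38e-06), to 0.659 of its uninduced level. Control-hairpin (shScramble) libraries had 113, 131, 131 and 141 CPM with dox, against 118, 118, 110.1 and 100.1 CPM without. These overlapped, and the log2 fold change of 0.21 was not called (adjusted p = 0.252), although it was called at 0.27 (adjusted p = 0.025) without shScramble dox replicate 1. The difference between the dox effects was -0.81 ± 0.102 (SE, adjusted p = 9.33e-06).

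CTNNB1 (ENSG00000168036; chr3:41194741-41260096, plus strand) encodes beta-catenin, which links cadherins to actin and carries the Wnt signal into the nucleus. It had 361, 371, 369.9 and 389 CPM in shAKAP2 cells with dox, against 482, 459, 457 and 489 CPM without it. Every induced library lay below every uninduced one, and CTNNB1 fell by 0.34 on the log2 scale (SE 0.0694, adjusted p = 0.000901). For shScramble cells the levels were 611, 540.3, 529 and 529 CPM with dox, against 579.6, 501, 470.1 and 466 CPM without. Replicate 1 was the highest of both shScramble groups, the groups overlapped, and the log2 fold change of 0.13 was not called (adjusted p = 0.601). The difference between the dox effects was -0.47 ± 0.0981 (SE, adjusted p = 0.002).

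PEBP1 (ENSG00000089220; chr12:118135858-118145584, plus strand), a cytoplasmic inhibitor of kinase signalling, had 286, 296, 301 and 301 CPM in shAKAP2 cells with dox, against 260.3, 269.6, 249 and 262 CPM without it. The groups were apart by a small margin, and PEBP1 rose by a log2 fold change of 0.19 ± 0.0684 (SE, adjusted p = 0.0472). The value stayed between 0.16 and 0.20 in the 8 fits that left out a library of either group, but the call was lost in all 8 (adjusted p 0.0546 to 0.13) and without the filter on low counts (adjusted p = 0.12). It passed with more room when only these 2 groups were fitted (adjusted p = 0.000717) and without both shScramble libraries numbered 1 (adjusted p = 0.00086). In shScramble cells it had 297, 259, 249 and 243 CPM with dox, against 319.8, 286, 273 and 269.4 CPM without, with overlap and no call. The difference between the dox effects was 0.32 ± 0.0967 (SE, adjusted p = 0.0254), and it was lost in 3 of 16 fits that left out a library. PEBP1 shares 9.49% of its exon bases with VSIG10 on the opposite strand, and whether counting used strand is not given in the sources used here. VSIG10 had 1515 counts in shAKAP2 cells with dox and 3838 without, summed over 4 libraries, and its part in the PEBP1 counts was not tested.

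The other 4 genes were not called after induction of shAKAP2. NME1 (ENSG00000239672; chr17:51153536-51162428, plus strand), a nucleoside diphosphate kinase and the first gene described as a metastasis suppressor, had 137 to 155 CPM in shAKAP2 cells with dox and 111 to 136 CPM without. Its groups did not overlap, but the log2 fold change of 0.26 (95% interval 0.03 to 0.50) had an adjusted p of 0.0881. It was called when only these 2 groups were fitted (0.26, adjusted p = 0.00058) and without both shScramble libraries numbered 1 (0.26, adjusted p = 0.00847). NME1 shares 18.6% of its exon bases with the readthrough gene NME1-NME2 on the same strand, which held 100 to 214 counts per group, so counts of the pair are uncertain. BRMS1 (ENSG00000174744; chr11:66337333-66345125, minus strand), part of the SIN3-HDAC chromatin complex, averaged 65.2 ± 2.30 CPM in shAKAP2 cells with dox and 61.5 ± 0.881 CPM without, a log2 fold change of 0.08 (95% interval -0.09 to 0.26).

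ARHGDIB (ENSG00000111348; chr12:14942017-14961728, minus strand) encodes a cytosolic regulator of the cytoskeleton, and it averaged 85.6 ± 2.23 CPM in shAKAP2 cells with dox and 80.0 ± 2.57 CPM without. The log2 fold change was 0.10 (95% interval -0.03 to 0.22). CD44 (ENSG00000026508; chr11:35138870-35232402, plus strand) averaged 1089.6 ± 53.8 CPM with dox and 1050.5 ± 59.1 CPM without, a log2 fold change of 0.05 (95% interval -0.07 to 0.17). CD44 was the only 1 of the 8 whose groups overlapped in this comparison: 7 of 8 did not, beside 36.5% of all tested genes, and 3 of those 7 were not called.

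In the shScramble line, dox called none of the 8 genes with edgeR, beside 1.08% of all tested genes, 0.559% higher and 0.52% lower. At an unadjusted p under 0.05 there was 1, CD82, and DESeq2 and limma-voom called none. The groups overlapped for all 8, beside 4.43% of tested genes whose groups did not. Without both libraries numbered 1, CD82 (0.30, adjusted p = 0.00236) and CTNNB1 (0.16, adjusted p = 0.0466) were called higher with dox. Both genes were lower with dox in the shAKAP2 line. In the fit without those libraries, dox in the shScramble line called 6.36% of all tested genes. Of the 8 genes, 4 differed in their dox effect between the lines, 2 higher (KISS1 and PEBP1) and 2 lower (CD82 and CTNNB1), beside 18% of all tested genes, 7.53% higher and 10.5% lower. For NME1 that difference was 0.44 ± 0.159 (SE) and was not called (adjusted p = 0.0592), but 6 of 22 alternatives called it, with adjusted p from 0.000832 to 0.135 over all 22. Among these, DESeq2 gave 0.45 (adjusted p = 0.0425 by DESeq2's Wald test), and leaving out both shScramble libraries numbered 1 gave 0.55 (adjusted p = 0.000832).

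**Figure D2:**
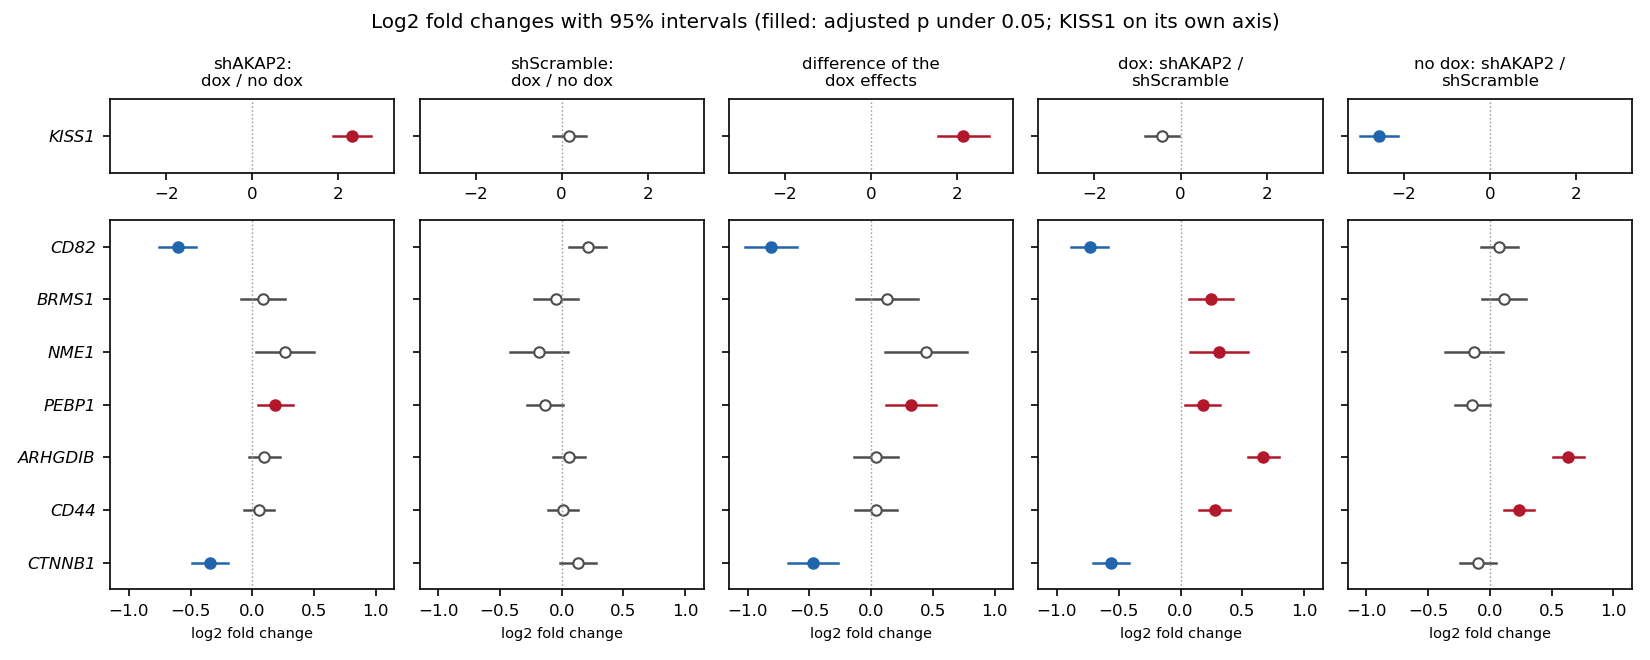
Log2 fold change of each gene with its 95% interval in the 5 comparisons, with KISS1 on a wider axis; filled points have an adjusted p under 0.05, red higher and blue lower. KISS1 is at 2.32 in shAKAP2 cells (dox against none) and at -2.57 in cells without dox (shAKAP2 against shScramble), while no gene is filled for dox in shScramble cells.

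ARHGDIB and CD44 differed between the lines, while neither was called for dox in either line. ARHGDIB had 83.9, 88.5, 83.8 and 86.4 CPM in shAKAP2 cells with dox, against 54.9, 56.2, 49.5 and 54.5 CPM in shScramble cells with dox. Without dox it had 79.3, 80.9, 83.0 and 76.9 CPM in shAKAP2 cells, against 52.0, 50.8, 50.5 and 53.1 CPM in shScramble cells. Every shAKAP2 library lay above every shScramble library, and ARHGDIB was higher in shAKAP2 cells by a log2 fold change of 0.67 ± 0.0603 with dox (SE, adjusted p = 2.94e-08) and 0.63 ± 0.0603 without (adjusted p = 7.09e-07). Its dox effects differed between lines by 0.04 (95% interval -0.14 to 0.22).

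CD44 had 1098, 1104, 1142 and 1014 CPM in shAKAP2 cells with dox, against 835, 897, 935 and 934 CPM in shScramble cells with dox. Without dox it had 1089, 1109.6, 1019.7 and 983 CPM in shAKAP2 cells, against 913, 862, 904 and 893 CPM in shScramble cells. The lines did not overlap in either condition. CD44 was higher in shAKAP2 cells by a log2 fold change of 0.28 ± 0.0586 with dox (SE, adjusted p = 0.000831) and 0.23 ± 0.0586 without (adjusted p = 0.00955). ARHGDIB, CD44 and CD82 are also expressed in leukocytes. The summed level of 10 blood cell markers, mostly LAPTM5, was 48.9 to 65.6 CPM in shAKAP2 cells with dox, 71.9 to 81.4 CPM in shAKAP2 cells without, 122 to 180.5 CPM in shScramble cells with dox and 77.3 to 101 CPM in shScramble cells without. PTPRC, which encodes the common leukocyte antigen, had 2 to 77 counts per library. Of the 8 markers tested, 0 were higher and 2 lower in shAKAP2 than in shScramble cells with dox. There 18.7% of all tested genes were higher and 21.5% lower. Without dox, 5 markers were higher and 0 lower, where 8.65% of all tested genes were higher. With dox against none, 2 markers fell in the shAKAP2 line, beside 15.2% of all tested genes. In the shScramble line 5 rose, beside 0.559% of all tested genes. In the difference between the dox effects 7 of 8 were lower, beside 10.5%. The part of these markers, and of the mitochondrial share that also moved with line and dox, in the levels of these 3 genes was not tested.

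With dox, 7 of the 8 genes differed between the lines, 5 higher and 2 lower in shAKAP2 cells, beside 40.2% of all tested genes, 18.7% higher and 21.5% lower. The groups did not overlap for 6 of 8, beside 37.8% of tested genes. CD82 had a log2 fold change of -0.74 (adjusted p = 1.07e-07) and CTNNB1 of -0.57 (adjusted p = 2.04e-06). NME1 was higher by 0.31 (adjusted p = 0.0327), BRMS1 by 0.24 (adjusted p = 0.0276) and PEBP1 by 0.18 (adjusted p = 0.0431). These 3 smaller differences were not stable: leaving out a library ended the call in 6 of 8 fits for NME1, 4 of 8 for BRMS1 and 6 of 8 for PEBP1. Without dox, 3 of the 8 differed between the lines (KISS1 lower, ARHGDIB and CD44 higher), beside 18% of all tested genes, 8.65% higher and 9.31% lower, and 3 of 8 did not overlap, beside 25.5%. CD82 (0.08, 95% interval -0.07 to 0.23) and CTNNB1 (-0.10, 95% interval -0.24 to 0.05) were not called there. These comparisons share their groups with those above, so they are not separate evidence.

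Per kilobase of exon, KISS1 was the least abundant of the 8 and PEBP1 the most. The length used joins all annotated exons of a gene, with 1780 bases for PEBP1, 10004 for CD44 and 11927 for CTNNB1, so the order depends on it. In CPM, CD44 (983) and CTNNB1 (475) averaged above PEBP1 (276), and KISS1 (5.84) was again the lowest. Mean levels over all 16 libraries were 155 RPKM for PEBP1, 98.3 for CD44, 39.9 for CTNNB1, 37.7 for NME1, 32.2 for ARHGDIB, 26.9 for CD82, 23.7 for BRMS1 and 8.24 RPKM for KISS1. Of the 32 sets of 4 libraries (8 genes in 4 groups), KISS1 in shAKAP2 cells without dox had the largest coefficient of variation of CPM, 34.4%, followed by NME1 in shScramble cells without dox at 20.9%. KISS1R, the receptor of the kisspeptins, had 0 counts in all 16 libraries, which allows at most 0.124 CPM in the shallowest library (3 counts, counting error only).

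Genes around 6 of the 8, and other metastasis suppressors, were taken from lists written from general knowledge. The lists were chosen with earlier results of these data known, so their counts are descriptions and not independent support. The counts below are for shAKAP2 cells with dox against those without. Of 22 tested genes from a list of 24 other metastasis suppressors, 3 rose and 10 fell, with a median log2 fold change of -0.20 against 0.0016 over all genes. Each list count is to be read beside the 13.1% of all tested genes that were higher and the 15.2% that were lower, and a count near those shares is no result about its list. MAP2K6, a kinase that activates p38, had 0.291 ± 0.0907 CPM with dox and 2.01 ± 0.443 CPM without (log2 fold change -2.76, adjusted p = 8.32e-06). TIMP3, an inhibitor of matrix proteases, had 129.6 ± 13.9 CPM with dox and 277 ± 26.1 CPM without (-1.10, adjusted p = 0.000136). CASP8, the initiator caspase of death receptors, rose (0.56, adjusted p = 0.000211). Dox in the shScramble line called 1 of the 22, MAP2K7, which fell with dox (-0.44, adjusted p = 0.00882).

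Among 13 tested genes of the kisspeptin receptor, peptide processing and KISS1 transcription list, 2 rose and 4 fell. PLCB3 (-0.77, adjusted p = 1.83e-06) and GNAQ (-0.67, adjusted p = 1.85e-05), which carry the signal of the receptor, fell, as did TFAP2A, which encodes AP-2 alpha (-0.99, adjusted p = 0.000206). MMP14, a membrane metalloprotease, rose (0.48, adjusted p = 0.000189). In the shScramble line MMP9, a protease known to cleave kisspeptin, was 1.82 ± 1.08 CPM with dox and 0.213 ± 0.119 CPM without (log2 fold change 3.07, adjusted p = 0.00263). Of 10 tetraspanin partners of CD82, 1 rose and 2 fell. When both shScramble libraries numbered 1 were left out, 3 rose and 4 fell. In that fit 39.4% of all tested genes were called, against 28.3% in the main fit. MET, a receptor that CD82 restrains, fell (-0.87, adjusted p = 8.79e-08), CD151 fell (-0.29, adjusted p = 0.0187) and CD81 rose (0.25, adjusted p = 0.00788).

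Of 18 tested beta-catenin partners, destruction complex members and targets, 1 rose and 6 fell. APC, a member of the destruction complex, fell (-0.57, adjusted p = 9.60e-05), as did the cadherin CDH11 (-1.30, adjusted p = 0.00136). The Wnt target AXIN2 also fell (-1.31, adjusted p = 0.00169), with 0.925 ± 0.169 CPM with dox and 2.30 ± 0.888 CPM without (SD). So did the partner transcription factor TCF7 (-2.27, adjusted p = 0.000672), with 0.666 ± 0.338 CPM with dox and 3.24 ± 0.565 CPM without. AXIN2 and TCF7 were thus at low levels.

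For BRMS1, 3 of 12 SIN3-HDAC complex genes rose and 1 fell. The histone-binding subunits RBBP4 (0.28, adjusted p = 0.000828) and RBBP7 (0.20, adjusted p = 0.024) and the deacetylase HDAC2 (0.29, adjusted p = 0.00102) rose, and the scaffold SIN3B fell (-0.38, adjusted p = 0.000848). In the NME family, NME4, the mitochondrial member, fell (-0.74, adjusted p = 7.98e-05), NME7 rose (0.30, adjusted p = 0.00324), and the other 4 of 6 were not called. Of 9 tested ligands, linkers and proteases of CD44, 1 rose and 2 fell: MMP14 rose as above, while RDX, which ties CD44 to actin (-0.71, adjusted p = 2.28e-09), and ADAM10, a protease that sheds its outer part (-0.37, adjusted p = 0.00293), fell. In the shScramble line SPP1, a ligand of CD44, was called higher with dox (2.97, adjusted p = 0.0404) although its groups overlapped.

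**Figure D3:**
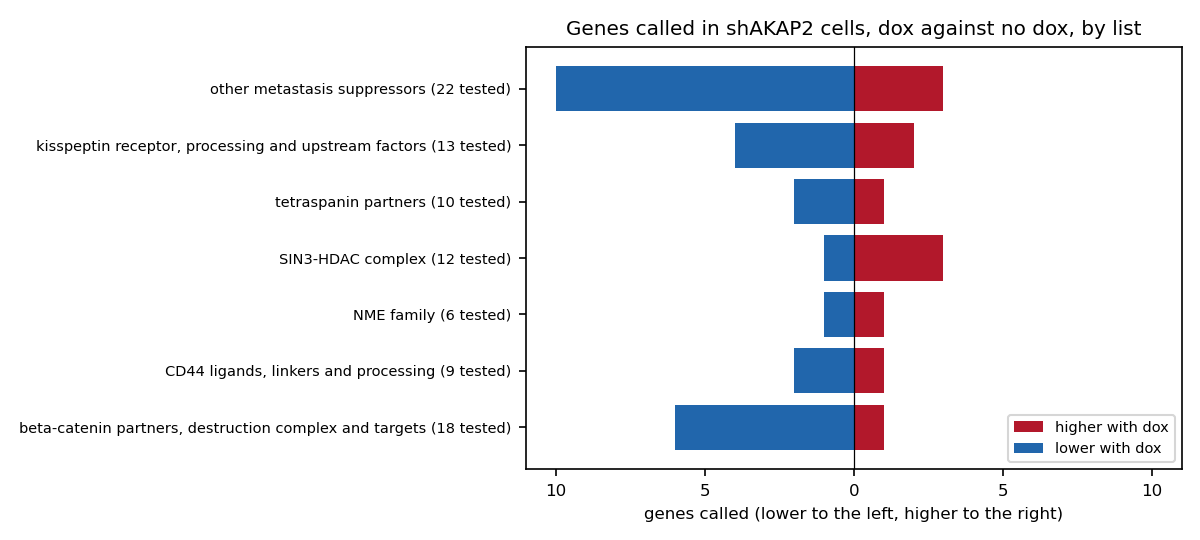
Number of genes in each list called higher (red, to the right) or lower (blue, to the left) in shAKAP2 cells, dox against none, with the number tested beside the name of each of 7 lists. The list of other metastasis suppressors has 3 genes higher and 10 lower, and the beta-catenin list has 1 higher and 6 lower.

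The expression pattern of KISS1 over the 16 libraries was most like that of ZNF706 among 12014 genes with a mean of at least 1 CPM, with a Pearson r of 0.979 in log2 CPM. FAT3 (0.938), TSPYL5 (0.934), CLIC5 (0.929) and SCML1 (0.929) followed. ZNF706 averaged 76.7 CPM in shAKAP2 cells with dox, 59.9 in shAKAP2 cells without, 82.2 in shScramble cells with dox and 80.7 CPM in shScramble cells without. Once group means were taken out, r with KISS1 was 0.718 for ZNF706 and -0.0032 to 0.425 for the other 4, so the likeness of those lies mainly in the group means. Closest to CD82 were NFIB and GRB10, to CTNNB1 PLOD2, to PEBP1 ST13 and JUND, to NME1 COPS3 and CDK4, to BRMS1 RPA1 and EED, to ARHGDIB GLB1L2 and MAPKAP1, and to CD44 SERPINE2 and RFLNB, with r of 0.895 to 0.984. All points share libraries, depth and group means, so these are descriptions.

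The 8 genes did not vary as 1 block within groups. With group means taken out, r between 2 of them over 16 libraries ran from -0.87 for BRMS1 with CTNNB1 to 0.90 for PEBP1 with CTNNB1, and was near 0 for others, such as KISS1 with CD44 (-0.0047). It was -0.79 for BRMS1 with PEBP1 and 0.63 for BRMS1 with NME1. Without both shScramble libraries numbered 1, over the other 14 libraries, r was -0.36 for BRMS1 with CTNNB1, 0.58 for PEBP1 with CTNNB1, -0.18 for BRMS1 with PEBP1 and 0.05 for BRMS1 with NME1. BRMS1 had 49.2 and 46.3 CPM in those libraries with and without dox, the lowest of their groups, while PEBP1 and CTNNB1 were the highest of theirs. NME1 with CTNNB1 had an r of -0.69 without those libraries and -0.78 with all. For KISS1 with CD82 it was -0.56 without them and -0.30 with all, and for CD44 with CTNNB1 -0.60 and -0.38.

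**Figure D4:**
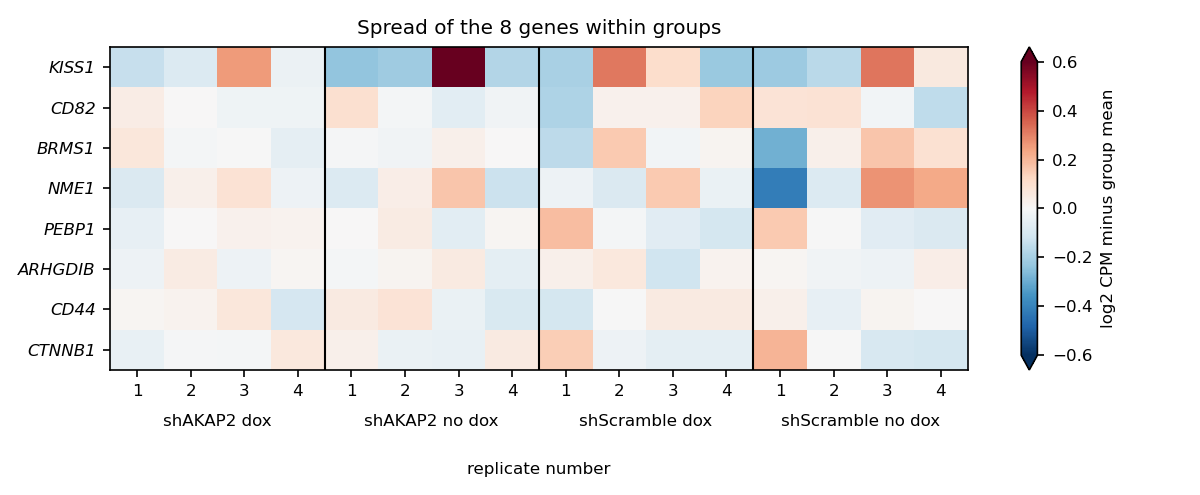
Deviation of each gene from its group mean in log2 CPM for the 16 libraries, with red above and blue below the mean; arrows on the colour bar mark values past the scale. The shScramble libraries numbered 1 are low for BRMS1 and high for PEBP1 and CTNNB1, and shAKAP2 no dox replicate 3 is high for KISS1.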

How the data were processed

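Polyadenylated RNA was sequenced from 16 libraries, 4 per group, grouped by their titles. Per the submitters' processing notes, the build is GRCh38 and the tools include Subread 1.5.2, featureCounts and STAR 2.5.2b, with no roles given. Annotation release and strand use were not given in the sources used here. As deposited by the authors, the values are raw counts per gene. Here they were tested with edgeR 4.0.16 (R 4.3.3): filterByExpr, TMM scaling and a robust quasi-likelihood model with a mean per group over all libraries (12 residual degrees of freedom), with Benjamini-Hochberg adjustment over 15566 genes and calls at an adjusted p under 0.05. Every adjusted p in the text is from edgeR's quasi-likelihood test so adjusted, unless another tool is named. The standard error (SE) comes from the F statistic. CPM is the count scaled to the TMM-adjusted library size, and RPKM divides it by exon length in GENCODE 29. The alternatives were RLE scaling, DESeq2 1.42.0, limma-voom 3.58.1, no filter, only the groups compared, a replicate block and left-out libraries. No 2 libraries of a group agreed within sampling noise (chi-square per gene 4.54 to 80.8). The code was tested on simulated counts.

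The 8 genes and the lists were chosen with earlier results of these data known. The text names all 8 genes, up to 4 called genes with the smallest p per list for dox in the shAKAP2 line and up to 2 in the shScramble line, the 5 genes most like KISS1, the 2 most like each other gene, and AKAP2. Some genes and lists that this rule takes in are not reported here.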

Additional observations from a re-analysis of the deposited data

Results flagged for a closer look

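In the 32 sets of 4 libraries (8 genes in 4 groups), 2 held a library far from the other 3. Chance alone would give about 1 in 20 sets if the sets were independent. They share libraries, so the count of 2 cannot be judged against that share. KISS1 was at 1.90 CPM in shAKAP2 no dox replicate 3, above the other 3 libraries of that group. CTNNB1 was at 611 CPM in shScramble dox replicate 1, above the rest of its group. That library also stood apart over all tested genes (root mean square log2 distance 0.615). The effect of dox differed between the lines, shAKAP2 minus shScramble, by 2.14 on the log2 scale for KISS1, by -0.81 for CD82, by -0.47 for CTNNB1 and by 0.32 for PEBP1, each past the threshold in edgeR's interaction test.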

How the results depend on the processing

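No value of the 8 genes changed its called direction under any alternative run. KISS1 kept its calls for dox in shAKAP2 cells (2.23 to 2.58 when a library was left out), for the difference between lines in the dox effect (2.02 to 2.40) and for the lines without dox (-2.83 to -2.45). With dox, KISS1 in shAKAP2 against shScramble cells was called when only these groups were fitted (-0.43) and without both shScramble libraries numbered 1 (-0.49), and the cause was not tested. For dox in shAKAP2 cells, 4 of the 8 genes were called, but 3 in every fit that left out a library, beside 22.6% to 25.3% of all tested genes. With only these groups fitted 5 were called, beside 43.5%. The number of the 8 genes called for dox in shScramble cells was 0, beside 1.08% of all tested genes. It was 0 to 1 when a library was left out, beside 0.634% to 2.58%, and 2 without both libraries numbered 1, beside 6.36%. For shAKAP2 against shScramble with dox it was 7, but 4 to 6 when a library was left out. Of the values of the 7 other genes, 530 of 574 kept their side of the threshold, 31 lost a call and 13 gained one. The labels give no shared origin for same-numbered libraries. Their deviations correlated at -0.02 to 0.05 in the shAKAP2 line and 0.02 to 0.40 in the shScramble line. In the shScramble line, dox libraries numbered 1 (0.40) and 3 (0.20) each matched best with their own number, but 2 and 4 also matched best with 3. In the shAKAP2 line, those numbered 1 (0.04) and 4 (0.05) matched best with their own number, while 2 matched best with 3, and 3 with 4. These values do not settle whether the numbers mark pairs, and the main fit did not take them as pairs. With the replicate block KISS1 was at 2.34 for dox in shAKAP2 cells, with 5 of the 8 genes called, beside 36.4% of all tested genes. NME1 was called there at 0.27 (adjusted p = 0.00869), and its difference between the dox effects at 0.43 (adjusted p = 0.00556). Over all genes, the number called for dox in shScramble cells was 168, but 300 with DESeq2, 37 with only these groups, 416 with the replicate block, 101 to 409 when a library was left out and 1002 without both libraries numbered 1. For the difference between lines in the dox effect it was 2802, but 4823 without those libraries, and for the lines without dox 2795, but 1817 with the replicate block and 1669 to 2592 when a library was left out. Depth limits the precision of KISS1, with 27 to 50 counts per library in shAKAP2 cells without dox.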
